A study of Mus musculus with 4 samples.

Results

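The genes described here are 41 replication and mitosis genes, taken as a listed set of cell cycle genes and divided into 17 of S phase, the phase of DNA synthesis, and 24 of M phase, the phase of chromosome segregation, for which the few genes of G1 to S entry were kept with S phase. They were read in RNA of CD8 T cells sorted as naive by flow cytometry from the spleens of BALB/c mice. Of the 41, 40 could be read, among 19938 genes in all: each of the 17 S phase genes and 23 of the 24 M phase genes had an array probe set paired with that gene alone, and Ccnb1 was not analysed here. There were 2 Klf13 knockout arrays and 2 wild-type arrays, 1 per RNA sample, both groups of the BALB/c strain and neither given any treatment in the labels. The knockout is of the whole mouse as far as the labels say; the sources used here name neither the deleted stretch of Klf13 nor the age of the mice. They do not say that replicates are different mice either, so the p-values speak only of the spread among these RNA samples, part of which could be technical. Membership was set by gene function, with no measured value in the rule. The members were, however, chosen with earlier results of these data known.

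Naive T cells rest outside the cell cycle, and antigen or homeostatic cytokines bring them into G1, then into S phase and mitosis. Cyclin E with CDK2 and the E2F factors open S phase, for which the MCM helicase has been loaded onto origins by Cdc6 and Cdt1, and ribonucleotide reductase, thymidylate synthase and thymidine kinase supply nucleotides. CDK1 with cyclins A and B, Aurora and Polo kinases, spindle motors and the anaphase-promoting complex then carry the cell through mitosis. Transcripts of both phases are low in resting cells and peak in their own phase, E2F factors driving the first wave and the B-Myb, DREAM and FoxM1 proteins acting on the second through sites known as CHR elements. Klf13 is a zinc-finger factor of a family that binds GC boxes and CACCC boxes.

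The promoters of the members show this division of labour in their letters, and those of 5 are printed here: Mcm6 and Top2a for their many matches, Hmmr and Rrm2 as the members of each phase with the largest differences, and Ccnb2 as an example of evenly placed CCAAT boxes before a CHR match. Sequences are from RefSeq for the mouse assembly GRCm38.p6, and 32 of the 41 members had an entry: 14 of S phase and 18 of M phase. Each line runs 5′ to 3′ on the gene's strand, from 150 bases before a transcript start to 20 bases from the start on. Capitals mark matches, on either strand, to an E2F core, a CHR element or a CCAAT box. The E2F core was searched as TTCCCGC and also as TTCGCGC, with the further forms being TTGGCGC and also TTGCCGC. The CHR element was searched as TTTGAA and also as TTCGAA.
Mcm6 (S phase, chr1:128359686-128359855, minus strand): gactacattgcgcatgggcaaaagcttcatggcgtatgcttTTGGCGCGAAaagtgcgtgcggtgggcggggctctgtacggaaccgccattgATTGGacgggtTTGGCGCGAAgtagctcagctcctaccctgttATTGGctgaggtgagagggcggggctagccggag
Rrm2 (S phase, chr12:24708104-24708273, plus strand): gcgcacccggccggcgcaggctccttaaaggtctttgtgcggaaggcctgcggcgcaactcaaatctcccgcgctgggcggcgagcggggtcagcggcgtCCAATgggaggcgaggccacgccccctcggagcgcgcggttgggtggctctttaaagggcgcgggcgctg
Hmmr (M phase, chr11:40733418-40733587, minus strand): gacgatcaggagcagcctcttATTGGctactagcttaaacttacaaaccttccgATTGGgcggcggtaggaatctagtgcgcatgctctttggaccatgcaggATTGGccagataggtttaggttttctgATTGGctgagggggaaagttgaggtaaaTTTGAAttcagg
Ccnb2 (M phase, chr9:70421535-70421704, minus strand): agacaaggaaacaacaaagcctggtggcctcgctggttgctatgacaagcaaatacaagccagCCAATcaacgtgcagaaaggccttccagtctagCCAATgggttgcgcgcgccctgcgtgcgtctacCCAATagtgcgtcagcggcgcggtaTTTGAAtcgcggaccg
Top2a (M phase, chr11:99024170-99024339, minus strand): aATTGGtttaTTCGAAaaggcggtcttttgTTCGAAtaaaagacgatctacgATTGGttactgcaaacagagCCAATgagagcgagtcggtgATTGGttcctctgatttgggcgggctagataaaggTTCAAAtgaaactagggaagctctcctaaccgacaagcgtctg

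Mcm6 holds 4 E2F matches in this stretch, which form 2 pairs of overlapping inverted matches, and no CHR match. Hmmr and Ccnb2 each hold 1 CHR match just after the start, at bases 9 and 5, with 4 and 3 CCAAT boxes before it. Top2a holds 3 CHR matches and 4 CCAAT boxes, while Rrm2 holds 1 CCAAT box and no match to the other 2 motifs. Over the whole window of 300 bases, 250 before the start and 50 from it on, E2F letters stood in 8 of 14 S phase promoters (57.1%) and in 4 of 18 M phase promoters (22.2%), against 10.9% of the 27025 genes with a promoter in the table; a gene with several starts was counted if any of them matched. CHR letters stood in 2 of 14 S phase (14.3%) and 14 of 18 M phase promoters (77.8%), against 21.7% of all. The CCAAT box was found in 8 of 14 (57.1%) and 15 of 18 (83.3%), against 41.1%. GC boxes (GGGCGG) stood in 11 of 14 S phase and 14 of 18 M phase promoters, against 38.2% of all, and CACCC boxes (CCACCC) in 7 and 4, against 34% of all. These shares describe letters only; a match is no site, and promoters of active genes differ from others in base composition.

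The genotype labels could be read in the arrays. Klf13 read 5.46 and 5.43 on the log2 scale with the knockout label, against 7.01 and 7.15 with the wild-type label (3.10-fold lower, limma adjusted p = 3.75e-05), although a probe set outside the deleted part would check nothing. The defining CD8 T cell markers were bright on all 4 arrays: the 9 measured of 10 lay above each array's upper quartile, and Cd8a stood between 11.1 and 11.3. Knockout replicate 1 stood apart in its spread of values. Over all probe sets the upper quartile there was 6.52, and 6.63 to 6.67 on the other arrays, and among the 6 members of each phase with the smallest p, differences that moved by over 1.5 times without it are given both ways.

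None of the 40 measured members passed the test between genotypes. Of 17 S phase and 23 M phase genes, 0 rose and 0 fell in the limma test at an adjusted p under 0.05, a threshold that 2.25% of all genes passed (1.05% lower and 1.19% higher). At an unadjusted p under 0.05, 5 S phase and 2 M phase genes were lower in the knockout (8.75% of all genes were) and 0 and 1 were higher (7.85% of all genes were). The direction was less even: the difference of means lay below 0 for 14 of 17 S phase and 20 of 23 M phase genes, beside 9157 of all 19938 genes. The knockout pair lay entirely below the wild-type pair for 9 S phase and 11 M phase genes, 20 of the 40, where 23.2% of all genes did so. They lay above for 1 and 1, where 24.4% of all genes did so. The median difference, knockout minus wild type, was -0.10 on the log2 scale for S phase genes and -0.08 for M phase genes, beside 0.02 over all genes.

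**Figure D1:**
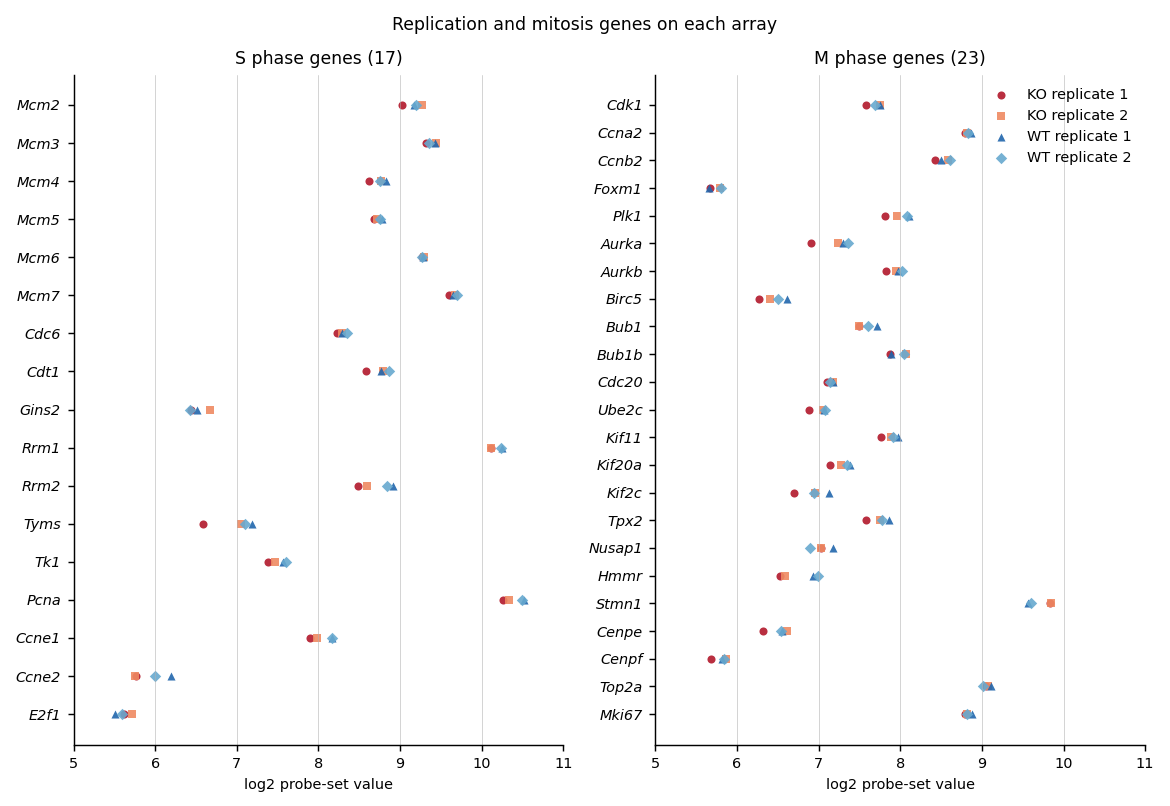
Log2 probe-set value (horizontal axis) of each of 17 S phase and 23 M phase genes on the 4 arrays; each point is 1 array, circles and squares for the knockout and triangles and diamonds for the wild type. The 4 points of a gene lie close together, with the widest gap for Tyms, at 6.59 in knockout replicate 1 and 7.05 to 7.18 elsewhere; levels of different genes cannot be compared, because probe sets differ in brightness.

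Among S phase genes, the lower values sat with nucleotide supply and the G1 to S cyclins rather than with the helicase, although the contrast between these groups was not tested. Rrm2 encodes the small subunit of ribonucleotide reductase, whose level limits the making of deoxynucleotides. Its values were 8.48 and 8.59 in the knockout and 8.91 and 8.84 in the wild type. Both knockout values were below both wild-type values, by -0.34 in the means (SE 0.09, limma adjusted p = 0.112). Tyms, the thymidylate synthase that makes dTMP, stood at 6.59 and 7.05 in the knockout and 7.18 and 7.11 in the wild type. Here knockout replicate 1 alone was far below, and replicate 2 lay close under the lower wild-type array, so that the difference of -0.32 had an SE of 0.14 (limma adjusted p = 0.281), and was -0.09 without that array (limma adjusted p = 0.673) and -0.55 without knockout replicate 2 (limma adjusted p = 0.0348). Pcna, the sliding clamp of the replication fork, read 10.3 on both knockout arrays and 10.5 on both wild-type arrays, without overlap (-0.21, SE 0.09, limma adjusted p = 0.282). A further probe set paired with Pcna gave nearly the same values (-0.21), so the pair may share target sequence. Tk1, the thymidine kinase of the salvage path, stood at 7.38 and 7.47 against 7.57 and 7.61, also without overlap (-0.16, limma adjusted p = 0.426). Its dimmer probe set read lowest in knockout replicate 1 and highest in knockout replicate 2, at 6.56 and 6.99, with 6.90 and 6.89 in the wild type. Rrm1, the large reductase subunit, differed by -0.13. All 5 genes of this group thus had both knockout arrays below both wild-type arrays, where 23.2% of all genes did so. The median of the group was -0.21.

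The cyclin E genes went the same way as each other. Ccne1 encodes cyclin E1, the partner of CDK2 at the start of S phase, and read 7.90 and 7.98 in the knockout against 8.17 and 8.17 in the wild type (-0.23, SE 0.09, limma adjusted p = 0.254). Ccne2, for cyclin E2, read 5.76 and 5.75 against 6.19 and 5.998 (-0.34, SE 0.10, limma adjusted p = 0.133). In both genes the knockout arrays were within 0.08 of each other and lay below the wild type. E2f1, the factor that switches on many genes of S phase, lay on the other side, at 5.61 and 5.72 in the knockout and 5.50 and 5.59 in the wild type (0.12, limma adjusted p = 0.579). The 9 genes of origin licensing and the replicative helicase, Mcm2 to Mcm7, Cdc6, Cdt1 and Gins2, differed by -0.13 to 0.08, with a median of -0.04. Their groups overlapped in 7 of 9, where they did so in 10442 of all 19938 genes, and no limma adjusted p was under 0.589. Mcm6, whose promoter is printed above, held the steadiest level, at 9.26 and 9.30 against 9.28 and 9.26.

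**Figure D2:**
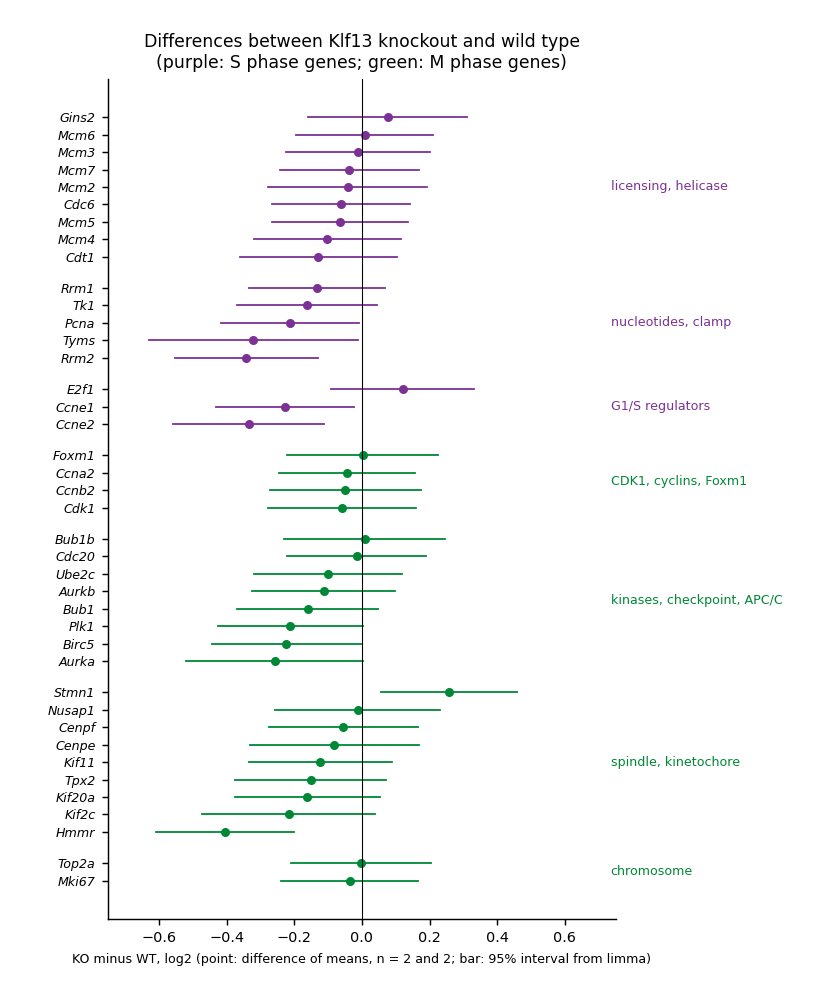
Difference between knockout and wild-type means on the log2 scale (horizontal axis) for each measured member, grouped by role; points are differences of the means of 2 arrays each and bars are limma 95% intervals, not adjusted for the number of genes. Most points lie left of 0 by less than 0.4, Hmmr reaches -0.41, and Stmn1 lies to the right at 0.26.

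Among M phase genes the largest difference was that of Hmmr, which encodes a hyaluronan-binding protein that organises spindle microtubules. Its values were 6.53 and 6.59 in the knockout and 6.94 and 6.99 in the wild type. The groups were apart by several times the spread within them, 1.32-fold in the means (-0.41, SE 0.09), and the limma adjusted p of 0.0546 missed the threshold. It passed in 6 of 12 alternative settings, with adjusted p-values over those settings from 0.00973 to 0.378. Stmn1 encodes stathmin, which destabilises microtubules, and was the member that lay clearly higher in the knockout, at 9.83 and 9.84 against 9.56 and 9.60 (0.26, SE 0.09, limma adjusted p = 0.195). A further probe set of Stmn1 gave 0.27. Stathmin is also abundant in lymphocytes at large, and its level does not follow mitosis alone. Kif2c, a kinesin that takes microtubules apart at centromeres, read 6.69 and 6.95 in the knockout and 7.13 and 6.94 in the wild type, and the groups overlapped (-0.22, limma adjusted p = 0.393; -0.09 without knockout replicate 1 and -0.35 without knockout replicate 2). The other 6 spindle and kinetochore genes, Kif11, Kif20a, Tpx2, Nusap1, Cenpe and Cenpf, differed by -0.16 to -0.01. Their groups overlapped in 3, where they did so in 10442 of all 19938 genes.

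Of the mitotic kinases and their partners, 3 lay lower by about as much as the S phase cyclins. Aurka, the Aurora kinase of the spindle poles, stood at 6.91 and 7.24 in the knockout and 7.29 and 7.36 in the wild type, where knockout replicate 1 made most of the gap (-0.26, SE 0.12, limma adjusted p = 0.307). The difference of Aurka was -0.09 without that array (limma adjusted p = 0.652) and -0.42 without knockout replicate 2 (limma adjusted p = 0.0448). Plk1, the Polo-like kinase that drives entry into mitosis, stood at 7.81 and 7.96 against 8.10 and 8.08 (-0.21, SE 0.10, limma adjusted p = 0.309), a difference of -0.14 without knockout replicate 1. Birc5, or survivin, the chromosomal passenger that places Aurora B, stood at 6.26 and 6.41 against 6.62 and 6.50 (-0.22, SE 0.10, limma adjusted p = 0.297). These 3 are among the M phase members named for the smallest p. All 3 had both knockout arrays below both wild-type arrays, where 23.2% of all genes did so, and none passed. Aurkb, the checkpoint kinase genes Bub1 and Bub1b, and the genes of the anaphase-promoting complex Cdc20 and Ube2c differed by -0.16 to 0.01. The CDK1 and cyclin genes that drive mitosis differed by less. Ccnb2, for cyclin B2, stood at 8.43 and 8.59 in the knockout and at 8.50 and 8.61 in the wild type, with overlap (-0.05, limma adjusted p = 0.853). The sign of Ccnb2 turned upwards after a further quantile normalization, after cyclic loess and without knockout replicate 1 or wild-type replicate 2. Cdk1, Ccna2 and the transcription factor gene Foxm1 differed by -0.06 to 0.003. The usual marker of dividing cells, Mki67, read 8.80 and 8.82 against 8.88 and 8.82, and Top2a, the topoisomerase that untangles chromosomes, 9.05 and 9.07 against 9.12 and 9.02; both overlapped.

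The intervals bound what these arrays allow. Over the 40 members the limma 95% intervals, each unadjusted, ran from -0.63 at the lowest (Tyms) to 0.46 at the highest (Stmn1), which is 1.55-fold lower to 1.38-fold higher, so no interval reached a 2-fold change in either direction. For Mki67 the interval was -0.24 to 0.17, and for Top2a -0.21 to 0.20. Folds on these arrays are compressed for dim genes, and RMA would have hidden a shift shared by most genes. In bulk RNA, fewer cells of a type and less RNA per cell cannot be told apart.

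Each of the 40 members lay above the median gene on all 4 arrays, where 9582 of 19938 genes did so, and 29 of them lay above the upper quartile on all 4, where 4665 genes did so. A rank within an array also reflects how well a probe set binds, and says neither whether a gene was expressed nor what share of cells was in cycle.

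The differences between the genotypes came with a difference between the knockout arrays themselves. S phase genes had a mean value of 8.23 in knockout replicate 1 and 8.35 in replicate 2, beside 8.41 and 8.39 in the wild type. M phase genes had 7.44 in knockout replicate 1, 7.56 in replicate 2 and 7.61 and 7.58 in the wild type. Thus knockout replicate 2 lay closer to the wild type than to its own partner in both phases. Knockout replicate 1 was the lowest of the 4 arrays for 14 of 17 S phase and 18 of 23 M phase genes, as it was for 34.8% of all genes. It lay below replicate 2 for 38 of the 40, where it did so for 54.9% of all genes. Against the mean of the wild-type arrays, the median of S phase genes was -0.16 in knockout replicate 1 and -0.03 in replicate 2, and that of M phase genes -0.16 and -0.02.

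**Figure D3:**
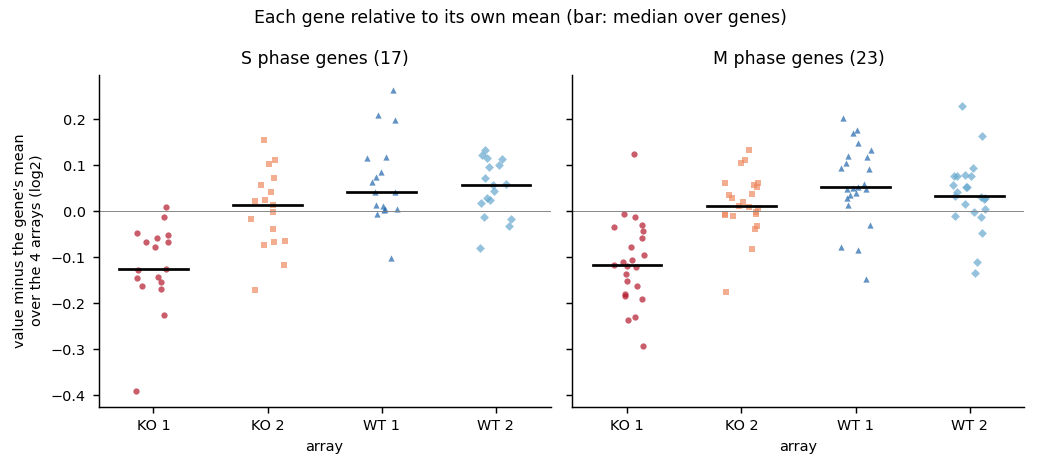
Each member's value on an array minus its own mean over the 4 arrays (vertical axis, log2), for S phase genes (left) and M phase genes (right); points are genes and bars are medians. The medians are -0.12 in knockout replicate 1 for both phases and between 0.01 and 0.06 on the other 3 arrays.

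Bright genes at large were lower on the same array. Among all genes, divided into 10 equal bins by mean level, the bin with a median level of 6.87 had a median of -0.17 in knockout replicate 1 against the wild-type mean and -0.01 in replicate 2, while the bin at 4.28 had 0.15 and 0.04. Of the 40 members, 39 lay in the 4 brightest bins. With cyclic loess, which removes trends with level, the medians were -0.02 for both phases, and 9 of 17 S phase and 13 of 23 M phase genes then lay below 0. A further quantile normalization gave -0.03 and -0.02, with the same counts below 0. Without knockout replicate 1 the medians were -0.03 and -0.02. Other settings moved the medians away from 0. Median centring, which shifts all values of an array alike, gave -0.19 for S phase and -0.17 for M phase genes. The median over all genes was then -0.07, in place of 0.02. Leaving out knockout replicate 2 gave -0.16 for both phases and 0.01 over all genes. The nucleotide and clamp group had a median of -0.15 after cyclic loess and -0.13 without knockout replicate 1, and the 3 G1 to S regulators -0.14 and -0.19. The licensing group turned upwards under both normalizations, to 0.03.

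**Figure D4:**
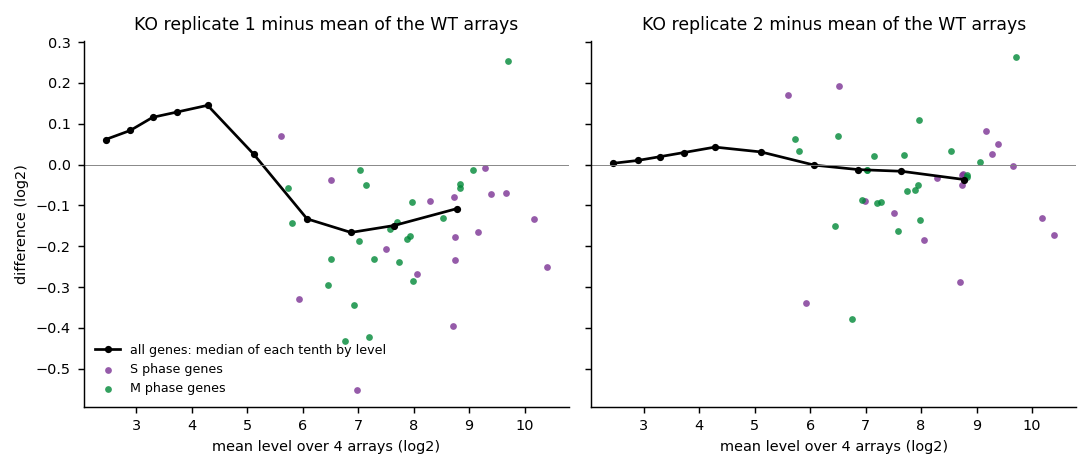
Difference of each knockout array from the mean of the wild-type arrays (vertical axis, log2) against the mean level over 4 arrays (horizontal axis, log2); black points join the medians of all genes in 10 equal bins by level, and coloured points are S phase (purple) and M phase (green) genes. In knockout replicate 1 the line rises to 0.15 at a level of 4.28 and then falls to -0.17 at 6.87, with members on both sides of it, whereas in replicate 2 it stays between 0.04 and -0.04.

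Further genes of the cycle, from lists that do not hold the members, gave a similar picture. At an unadjusted p under 0.05, 8.75% of all genes were lower in the knockout and 7.85% were higher. Of 40 other replication genes, 0 rose and 0 fell (7 lower and 0 higher at an unadjusted p under 0.05), with a median of -0.11; those with the smallest p were Orc1, of the origin recognition complex (-0.41, limma adjusted p = 0.0551), the fork protection factor gene Tipin (-0.33, limma adjusted p = 0.118) and the licensing inhibitor gene Gmnn (-0.33, limma adjusted p = 0.128). Of 51 other mitosis genes, 0 rose and 0 fell (12 lower and 0 higher at an unadjusted p under 0.05), with a median of -0.13. Prc1, which bundles the central spindle, differed by -0.35, Cdca8 of the chromosomal passenger complex by -0.35 and Ccnf, for cyclin F, by -0.35 (limma adjusted p = 0.101, 0.112 and 0.146). These medians were -0.03 and -0.06 after cyclic loess, and both were -0.05 without knockout replicate 1. The 0 that fell in each list depends on the settings. After median centring 3 of each list fell, where 851 of all 19938 genes did so. With the replicate block 1 replication and 3 mitosis genes fell, where 618 of all genes did so. After cyclic loess Orc1 alone fell (limma adjusted p = 0.048), where 160 of all genes did so. A further quantile normalization gave 0 in both lists.

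Of 14 genes of the G1 machinery, 1 rose and 0 fell, where 1.19% of all genes rose and 1.05% fell. The gene was Mycn, for N-Myc, a transcription factor of the MYC family that drives growth, which stood at 5.36 and 5.45 in the knockout and 4.82 and 4.97 in the wild type. Both knockout arrays lay above both wild-type arrays, by 0.50 in the means (SE 0.10, limma adjusted p = 0.0299), a call lost without knockout replicate 1 (limma adjusted p = 0.0682) and without wild-type replicate 1 (limma adjusted p = 0.306). The median of this list was -0.02. Of 21 inhibitors and quiescence genes 0 rose and 0 fell, and the median was -0.01. At an unadjusted p under 0.05, 0 were higher and 2 lower, where 7.85% and 8.75% of all genes were. The E2F repressor gene E2f5 (-0.42), the p27 gene Cdkn1b (-0.25) and Foxp1, which keeps T cells quiescent (-0.19), had the smallest p, with limma adjusted p of 0.0887, 0.215 and 0.335. With the mean of its probe sets Cdkn1b was lower by more and passed (-0.44, limma adjusted p = 0.0379), and E2f5 passed in 4 of 12 alternatives, so the 0 that fell depends on these settings; the median of the list was 0.07 after cyclic loess.

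Markers of other cells moved beside these values. Over all genes, 1.19% rose and 1.05% fell in the limma test at an adjusted p under 0.05. Of 9 granulocyte progenitor markers, 8 rose in the limma test, with mean values of 6.56 and 6.76 in the knockout, against 5.11 and 5.30 in the wild type, the myeloperoxidase gene Mpo among them (1.97, limma adjusted p = 1.87e-05). Of 10 myeloid and dendritic markers 5 rose, with means of 4.69 and 4.86 against 4.31 and 4.27, and of 12 B and plasma cell markers 3 rose, with means of 6.03 and 6.09 against 5.70 and 5.75. Of 9 mature neutrophil markers and 3 CD4 T cell markers 0 passed. Of 8 erythroid markers 1 fell, Rhag, of the red cell membrane, at 8.76 and 8.85 against 9.31 and 9.20 (-0.45, limma adjusted p = 0.0422). The call of Rhag was lost in 5 of 12 alternatives: after a further quantile normalization (limma adjusted p = 0.0674), after cyclic loess (0.0636), and without knockout replicate 1 (0.119), wild-type replicate 1 (0.42) or wild-type replicate 2 (0.0941). The transferrin receptor gene Tfrc, which dividing cells also express, differed by -0.41 (limma adjusted p = 0.0511). Tfrc passed with a variance trend (limma adjusted p = 3.37e-05), with the replicate block (0.0109) and after median centring (0.00927), among other settings. It did not pass after a further quantile normalization (limma adjusted p = 0.0718) or cyclic loess (0.0634). Klf1, the erythroid factor, differed by -0.14 (limma adjusted p = 0.496). The erythroid list had means of 7.99 and 8.05 in the knockout and 8.18 and 8.16 in the wild type, and its 8 measured members all lay above the median gene on all 4 arrays; no marker is at 0 on this log scale. Erythroid and granulocyte precursors divide in the adult spleen and marrow; the part of these cells in the cell cycle values was not tested.

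**Figure D5:**
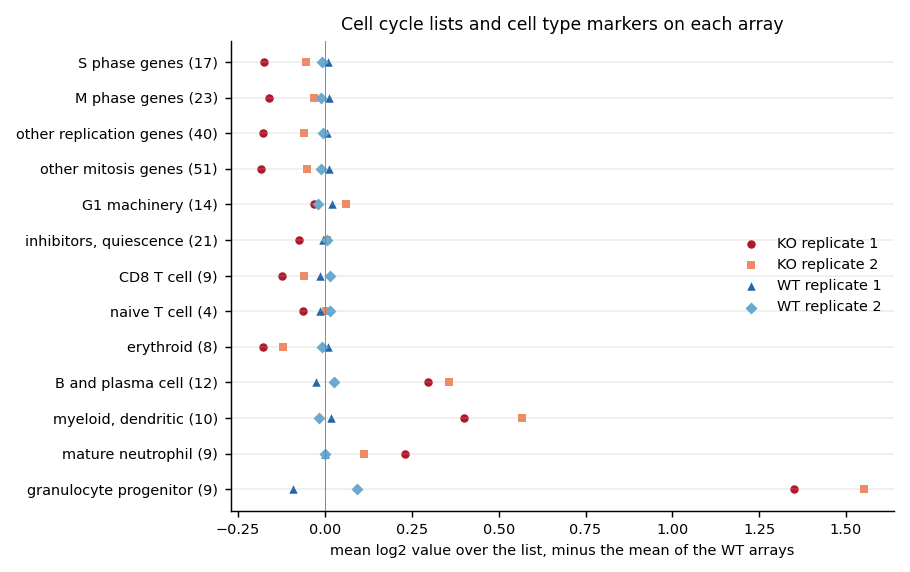
Mean log2 value over each list on each array, minus the mean of the wild-type arrays (horizontal axis), with the number of measured genes in brackets; symbols mark the 4 arrays. The S and M phase lists and the other replication and mitosis lists lie lowest in knockout replicate 1. So do the lists of G1 machinery, inhibitors and quiescence, CD8 T cells, naive T cells and erythroid cells. The granulocyte progenitor list lies above the wild type on both knockout arrays.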

How the data were processed

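RNA of 4 samples (200 ng each, RNA integrity number above 9, biotin-labelled after random priming) was hybridised to 1-colour Affymetrix arrays, per the labels' protocols. Values were deposited by the authors on a log2 scale, for which the submitters' processing notes name RMA and Partek without versions. RMA is meant to make the distributions of arrays alike, but the deposited ones still differed. Their upper quartile over all probe sets was 6.52 in knockout replicate 1 and 6.63 to 6.67 on the other arrays. The table holds 35556 probe sets, of which the platform annotation pairs 21789 with 1 gene, 1621 with several and 12146 with none listed. Symbols were updated through RefSeq (GRCm38.p6; 21698 matched), and for each of 19938 genes the brightest probe set paired with it alone was used, with no filter on level and no detection calls. The groups were compared with limma 3.58.1 in R 4.3.3 (lmFit, eBayes, genotype alone, two-sided, Benjamini-Hochberg over all genes, threshold 0.05; prior degrees of freedom 8.06), tested on simulated data. Errors are limma standard errors. The number of arrays limits the precision. Members and lists were chosen with earlier results of these data known. Values by array are printed for the 6 members of each phase with the smallest p and for cyclins B and E; of the other cell cycle lists, the called genes or the 3 with the smallest p are named. Beyond that rule E2f1, Mcm6, Mki67, Top2a, Mpo, Rhag, Tfrc, Klf1 and Cd8a were named after their values were seen. Motifs were searched on both strands, overlapping matches counted singly. Alternatives were other probe set rules, the brighter genes alone, further normalizations, a variance trend, the replicate number as a block, each array left out, and a shorter promoter window.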

Additional observations from a re-analysis of the deposited data

How the results depend on the processing

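The count of called genes among all 19938 was 448 (53.1% higher in the knockout), and 1088 after median centring (21.8% higher), 831 with a variance trend and robust moderation and 1187 with the replicate block; leaving out 1 array gave 264 to 1536, the lowest without knockout replicate 1 and the highest without knockout replicate 2, and 277 without wild-type replicate 1. Of S phase genes, 0 were called, and 2 after median centring (Rrm2 and Ccne2), 2 with the variance trend (Rrm2 and Pcna), 1 with the replicate block (Rrm2) and 0 to 2 with 1 array left out, where the 2 without knockout replicate 2 were Rrm2 and Tyms. Of M phase genes, 0 were called, and 1, Hmmr, with the mean of probe sets, among the brighter genes, after median centring and with the replicate block; 2 with the variance trend (Hmmr and Stmn1); and 0 to 2 with 1 array left out, where the 2 without knockout replicate 2 were Hmmr and Aurka. Over 12 alternatives, 33 members were never called. The S phase median of -0.10 was -0.035 after a further quantile normalization, -0.021 after cyclic loess and -0.19 after median centring, and -0.16 to -0.033 with 1 array left out. The M phase median of -0.08 was -0.016, -0.021 and -0.17 under the same normalizations and -0.16 to -0.025 with 1 array left out. Median centring also moved the median over all genes, from 0.015 to -0.071. Ccnb2 turned upwards after quantile normalization (0.025), after cyclic loess (0.034), without knockout replicate 1 (0.032) and without wild-type replicate 2 (0.0051), and with 1 array left out ranged from -0.13 to 0.032. In the last 150 bases of the promoter window, CACCC boxes stood in 21.4% of S phase and 11.1% of M phase promoters (20.4% of all genes), E2F letters in 35.7% and 5.56% (6.49%), GC boxes in 71.4% and 50% (31.5%) and CHR letters in 7.14% and 72.2% (9.87%). Deviations of same-numbered arrays correlated with r = 0.0074 across genes. With 2 arrays a group, this value cannot show whether same-numbered arrays were handled together. The cause of these shifts was not tested. With 2 arrays a group, leaving 1 out leaves a lone array, which is assumed to vary like the others. The replicate block leaves 1 degree of freedom per gene, so its calls rest mostly on the spread pooled over genes.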
